A study of Homo sapiens with 8 samples.

Results

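The 47 genes described here act in the repair of DNA and in the checkpoints that answer DNA damage. They were taken by gene symbol from a list of names, and all 47 were found among the 23368 genes of the count files. Of these genes, 24 belong to homologous recombination and the Fanconi anaemia pathway, 7 sense breaks or pass on the checkpoint signal, 15 act in mismatch repair, excision repair or end joining, and RAD18 acts in post-replication repair. The first group is set against the third throughout. All 47 passed the filter on low counts, and the lowest count of any of them in any library was 33.

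RNA was sequenced from U87MG, a human glioblastoma line grown in DMEM with fetal bovine serum. The 4 groups held 2 libraries each: cells given no treatment, here the control, and cells harvested 4, 24 or 48 h after enzalutamide was added. Enzalutamide blocks the androgen receptor and is a prostate cancer drug, and the stated purpose was to learn how genes of this line respond to it. The labels give neither a dose nor a vehicle, no culture time for the control, and a harvest after a differentiation step that the culture protocols do not mention. Nothing in them says whether both libraries of a group were grown as separate cultures, so the p-values measure only the spread between libraries, which may be technical. All treated groups were compared with the same 2 control libraries. The drug, a possible vehicle and time in culture cannot be told apart in these comparisons. Between treated times, time on the drug and time in culture cannot be told apart either.

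Homologous recombination copies an intact sister DNA molecule to mend a broken one and is used mainly during and after DNA replication. The Fanconi anaemia proteins recognise and unhook cross-links between the DNA strands at stalled replication forks, and they hand the break that results to recombination. Mismatch repair corrects copying errors, base and nucleotide excision repair replace damaged bases, and end joining rejoins broken ends at any stage of the cell cycle. Many recombination and Fanconi genes are transcribed in step with the cell cycle through E2F factors, while end-joining genes are expressed in resting cells too.

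Total counts were 24620833 to 37162565 per library, and libraries of a group correlated at 0.992 to 0.995 over genes (log2 CPM). Levels below are CPM, the usual depth-scaled count, with library totals scaled by TMM factors. A gene was called when its edgeR quasi-likelihood p, adjusted by Benjamini and Hochberg over 14448 genes, was under 0.05. The mesenchymal glioma marker VIM lay at 5609 to 13638 CPM and CD44 at 1880 to 2952 CPM, whereas the glial markers GFAP, S100B, AQP4, SOX2 and FABP7 stayed at or below 0.633 CPM. Of the same list NES lay at 10.9 to 43.3, SOX9 at 2.34 to 15.4 and OLIG2 at 1.35 to 2.72 CPM. Among markers of other cell types, the leukocyte PTPRC, CD14 and CD3E, the epithelial EPCAM and CDH1, the endothelial PECAM1, VWF and CDH5, the neuronal RBFOX3 and the oligodendrocyte MOG stayed at or below 0.64 CPM, with CD3E and MOG at 0. Others on these lists were present: CD68 at 566.5 to 1049, SNAP25 at 14.8 to 38.2, KRT8 at 4.12 to 10.7, SYT1 at 3.16 to 7.17 and MBP at 1.53 to 3.04 CPM; their part in the results was not tested. In bulk RNA, fewer cells that express a gene and less RNA per cell cannot be told apart.

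In the control libraries, levels per kilobase of exon were highest for the Ku genes. XRCC6 and XRCC5, the subunits of the Ku dimer that caps broken ends, had 87.5 and 73.9 CPM per kilobase. The base excision genes UNG, at 21.0, and PARP1, which marks single-strand breaks with poly(ADP-ribose), at 20.9, came next, ahead of PRKDC, the DNA-dependent kinase that Ku recruits, at 18.8. The other end-joining genes stood lower, LIG4 at 8.51 and XRCC4 at 5.76. The most abundant recombination or Fanconi gene per kilobase was FANCL, the ubiquitin ligase of the Fanconi core complex, at 11.8, and it ranked 10 among the 47. BRCA1 had 3.71, BRCA2 0.834 and FANCM, the helicase that anchors the core complex, 0.314 CPM per kilobase, the lowest of the 47. In the annotation used for exon lengths, 17 of the 47 overlap an exon of another protein-coding gene, among them FANCI (POLG), FANCL (VRK2), FANCA (ZNF276), FANCD2 (FANCD2OS), RAD54L (LRRC41), XRCC3 (KLC1) and ERCC1 (CD3EAP), and 8 have pseudogenes that carry their name, among them PMS2 with 11, XRCC6 with 5, CHEK2 with 4 and PARP1 with 2. Whether counting used strand is not given in the sources used here, so reads of such pairs cannot be told apart.

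The promoters show a sequence feature that many of these genes share. RefSeq windows (build GRCh38.p14) from 250 bases before to 50 bases after the most upstream start were available for 41 of the 47 genes, and not for RAD54B, RMI2, FANCI, NBN, XRCC5 and PRKDC. E2F factors bind sites such as TTTGGCGC, TTTCCCGC, TTTGCCGC and TTTCGCGC and the core GGCGGGAA, which overlaps TTTCCCGC read from the opposite strand. At least 1 of these 5 words, on either strand, stood in 11 of 21 recombination and Fanconi windows (52.4%) and in 5 of 13 mismatch, excision and end-joining windows (38.5%). It stood in 0 of 6 break-sensing windows and in 5.58% of 27305 windows of all genes (7.45% of protein-coding genes). A CCAAT box, CCAAT on either strand, stood in 42.9% of the recombination and Fanconi windows against 35.7% of all windows. Its share was higher in the mismatch, excision and end-joining windows (53.8%) and in the break-sensing windows (66.7%). TTTGAA, the cell cycle homology region, stood in 9.52% of the recombination and Fanconi windows against 15.5% of all windows. In windows of 17 proliferation genes the shares were 47.1% for an E2F word and 88.2% for a CCAAT box. In 58 windows of other repair genes they were 13.8% and 46.6%. The 7 windows below run from 100 bases before to 25 bases after the start, 5′ to 3′ on the strand of the gene, with E2F words in capitals. RAD51AP1, BLM, BRIP1, EXO1 and FANCD2 were picked, after their values were seen, from the genes called at both 4 and 24 h. XRCC3 was picked because it carries the core GGCGGGAA and did not follow them, and MSH6 as a mismatch repair gene. All 7 windows hold an E2F word. BRCA1, BRCA2, BARD1 and FANCG were called at 4 and 24 h too, but their windows hold no such word and are not printed. They lie at chr12:4538790-4538914 (plus strand, RAD51AP1), chr15:90717246-90717370 (plus, BLM), chr17:61863504-61863628 (minus, BRIP1), chr1:241848104-241848228 (plus, EXO1), chr3:10026337-10026461 (plus, FANCD2), chr14:103715427-103715551 (minus, XRCC3) and chr2:47783045-47783169 (plus, MSH6).
RAD51AP1: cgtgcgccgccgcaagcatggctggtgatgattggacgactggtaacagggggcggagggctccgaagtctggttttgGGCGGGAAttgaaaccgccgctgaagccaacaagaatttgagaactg
BLM: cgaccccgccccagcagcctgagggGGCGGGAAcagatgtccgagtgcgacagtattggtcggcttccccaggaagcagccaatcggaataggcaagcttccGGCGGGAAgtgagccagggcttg
BRIP1: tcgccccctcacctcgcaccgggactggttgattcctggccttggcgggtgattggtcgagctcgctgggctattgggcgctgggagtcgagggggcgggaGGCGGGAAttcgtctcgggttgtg
EXO1: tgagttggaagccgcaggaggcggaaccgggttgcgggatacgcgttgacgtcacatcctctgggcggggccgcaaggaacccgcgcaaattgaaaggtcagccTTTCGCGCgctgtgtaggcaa
FANCD2: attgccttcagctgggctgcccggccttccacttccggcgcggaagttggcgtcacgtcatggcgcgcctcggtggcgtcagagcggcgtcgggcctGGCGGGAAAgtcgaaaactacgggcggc
XRCC3: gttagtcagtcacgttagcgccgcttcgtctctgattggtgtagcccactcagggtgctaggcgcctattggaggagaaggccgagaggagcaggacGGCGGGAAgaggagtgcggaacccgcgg
MSH6: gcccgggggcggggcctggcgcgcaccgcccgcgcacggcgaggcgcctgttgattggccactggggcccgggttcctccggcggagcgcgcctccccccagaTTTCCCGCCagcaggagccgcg
A match of letters is no evidence of binding, and its absence from a window says nothing about the factor. In the list of recombination and Fanconi genes, 8 of the 11 with an E2F word and 8 of the 10 without one rose at 24 h. Their median log2 changes were 0.98 and 0.67. BRCA1 and BARD1, whose windows hold none of these words, were among those that rose. In the mismatch, excision and end-joining list, 2 of 5 with a word and 2 of 8 without one rose at 24 h (medians 0.19 and -0.02). From 4 to 24 h 4 of 5 and 2 of 8 rose (medians 0.38 and 0.04). The part of these words in the changes was not tested.

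**Figure D1:**
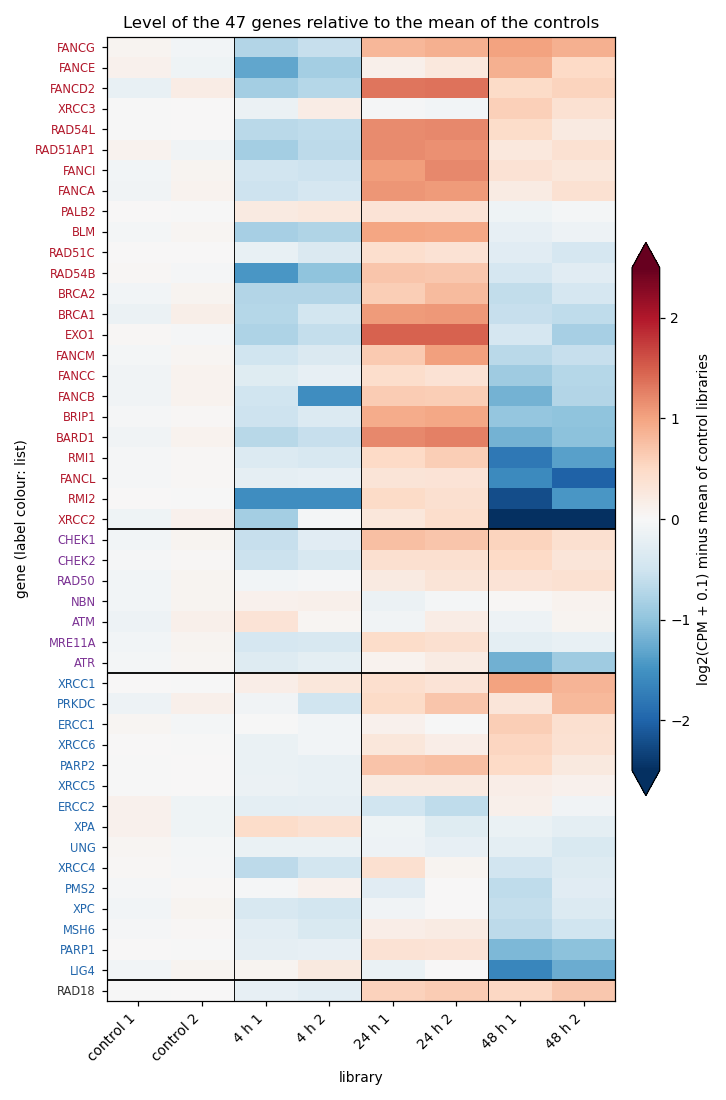
Level of each of the 47 genes (rows, grouped by list, ordered by their mean at 48 h) in each of the 8 libraries (columns), as log2(CPM + 0.1) minus the mean of the 2 control libraries; blue is lower and red higher. Most recombination and Fanconi rows are blue at 4 h and red at 24 h, and at 48 h they run from FANCG at the top, red, to XRCC2 at the bottom, dark blue.

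The first comparison set the 4 h libraries against the controls. Recombination and Fanconi genes were lower: 16 of 24 fell, 1 rose and 7 were not called, with a median log2 change of -0.61. Over all 14448 genes, 28.6% were called at 4 h, 13.6% lower and the others higher, and the median was -0.004. Of the 15 mismatch, excision and end-joining genes, 5 fell and 1 rose (median -0.17), and of the 7 break-sensing genes 3 fell and none rose (median -0.28).

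RMI2, which steadies the complex of the BLM helicase that dissolves crossed DNA strands, changed most. Its levels were 14.0 and 13.8 CPM in the controls and 4.68 and 4.68 CPM at 4 h. Both treated libraries lay far below both controls, and RMI2 fell by 1.57 (SE 0.18, log2 scale, edgeR adjusted p = 0.000109). BLM itself stood at 10.2 and 10.9 CPM in the controls and at 5.88 and 6.24 CPM at 4 h, also without overlap, and fell by 0.79 (SE 0.12, edgeR adjusted p = 0.000487). RMI1, another partner, had 13.1 and 13.5 CPM against 10.5 and 10.1 CPM and was not called (log2 change -0.37, SE 0.13, edgeR adjusted p = 0.0563). TOP3A, a partner outside the members, went the other way, from 24.1 and 28.8 CPM to 37.1 and 37.5 CPM. It rose by 0.50 (SE 0.09, edgeR adjusted p = 0.00265).

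The strand-exchange genes moved in the same direction. RAD54B, a DNA translocase, had 9.89 and 9.43 CPM in the controls and 3.48 and 4.74 CPM at 4 h, and fell by 1.22 (SE 0.15, edgeR adjusted p = 0.00017). RAD51AP1, which stimulates the pairing of DNA strands, had 15 and 13.3 CPM against 7.84 and 8.94 CPM, and fell by 0.74 (SE 0.12, edgeR adjusted p = 0.000712). The related RAD54L (-0.66), the mediator BRCA2 (-0.75), the end-resection nuclease EXO1 (-0.69), and BRCA1 (-0.59) with its ring-finger partner BARD1 (-0.64) and its helicase partner BRIP1 (-0.43) fell as well. In each of these 8 genes the treated libraries lay below both controls. PALB2, the bridge between BRCA1 and BRCA2, was the exception, with 26.0 and 25.4 CPM in the controls and 29.9 and 30.9 CPM at 4 h, and rose by 0.24 (SE 0.08, edgeR adjusted p = 0.0401). RAD51C and XRCC3, which form a complex with each other, and XRCC2 were not called, at -0.28 (SE 0.10), 0.04 (SE 0.12) and -0.38 (SE 0.21). XRCC2 was called lower without 4 h replicate 2 (-0.87, edgeR adjusted p = 0.0129).

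Of the 9 FANC genes 6 fell at 4 h, and FANCC (-0.26, SE 0.11), FANCL (-0.22, SE 0.11) and FANCM (-0.45, SE 0.22) were not called. FANCE, which links the core complex to its substrate, had 6.26 and 5.32 CPM in the controls and 2.28 and 3.15 CPM at 4 h, and fell by 1.07 (SE 0.21, edgeR adjusted p = 0.00282). The substrate pair FANCD2 and FANCI, which the core complex ubiquitinates to mark a cross-link, had 18.6 and 24.4 CPM and 53.9 and 58.8 CPM in the controls. At 4 h FANCD2 lay at 11.8 and 12.9 CPM and FANCI at 40.2 and 39.5 CPM, below every control value, and they fell by 0.80 (SE 0.12, edgeR adjusted p = 0.000728) and 0.50 (SE 0.08, edgeR adjusted p = 0.000761). The core subunits FANCG (-0.66), FANCA (-0.47) and FANCB (-1.03, SE 0.31) fell too. FANCB rests on few reads, 0.971 to 3.25 CPM in these 4 libraries, and its change was -1.65 without 4 h replicate 1 and -0.53 (adjusted p = 0.231) without 4 h replicate 2.

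In break sensing, MRE11A, the nuclease of the MRN complex, fell by 0.41 (SE 0.11, edgeR adjusted p = 0.0148), while its partners RAD50 (-0.05, SE 0.07) and NBN (0.12, SE 0.07) were not called. The checkpoint kinases CHEK1 (-0.42, SE 0.12) and CHEK2 (-0.46, SE 0.10) fell, and the upstream kinases ATM (0.19, SE 0.13) and ATR (-0.28, SE 0.10, edgeR adjusted p = 0.0557) were not called. In excision repair, the damage sensor XPC had 65.9 and 71.5 CPM in the controls and 52.3 and 50 CPM at 4 h, and fell by 0.43 (SE 0.09, edgeR adjusted p = 0.00574). Its pathway partner XPA, which checks the lesion, rose by 0.41 (SE 0.12, edgeR adjusted p = 0.0241), from 13.6 and 11.6 CPM to 17.2 and 16.4 CPM. The ligase cofactor XRCC4 (-0.56, SE 0.13), the mismatch sensor MSH6 (-0.33, SE 0.07), PARP1 (-0.21, SE 0.06) and XRCC5 (-0.16, SE 0.06) fell. LIG4 (0.16, SE 0.12), PRKDC (-0.29, SE 0.17), XRCC6 (-0.12, SE 0.07), PMS2 (0.04, SE 0.14), UNG (-0.17, SE 0.08), PARP2 (-0.19, SE 0.11), XRCC1 (0.23, SE 0.08), ERCC1 (-0.04, SE 0.08) and ERCC2 (-0.24, SE 0.10) were not called. RAD18, a ubiquitin ligase for stalled forks, fell by 0.23 (SE 0.08, edgeR adjusted p = 0.0461).

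Among 67 other repair genes that were tested, 15 fell and 5 rose at 4 h, led by the kinase WEE1 (-0.92) and the resection helicase DNA2 (-0.84). Of 20 proliferation genes 18 fell and none rose by edgeR (19 lower and 1 higher by sign), with AURKB at -1.52 and PLK1 at -1.12, and their summed level was 1912 and 1949 CPM in the controls and 1213 and 1250 CPM at 4 h. The part of proliferation in the fall of the recombination genes was not tested. Scaled by library totals alone, the share of higher calls over all genes was 38.2% in place of 52.4%, and 18 recombination and Fanconi genes fell and none rose, also none by unadjusted edgeR p. Many calls at 4 h lay close to the threshold: 12 to 16 recombination and Fanconi genes, 1 to 3 of the mismatch, excision and end-joining genes and 0 to 2 of the break-sensing genes were called with any 1 library left out. The 0 was reached without control replicate 2 and without 4 h replicate 1, where 3 and 2 genes had an unadjusted edgeR p under 0.05, against 4 with all libraries by edgeR, DESeq2 and limma-voom. PALB2, PARP1, XRCC5 and RAD18 lost their call without any 1 of the 4 libraries (adjusted p = 0.0913 to 0.243), as did FANCB without any but 4 h replicate 1, XPA and MRE11A without any but control replicate 1, and CHEK1 without any but 4 h replicate 2 (adjusted p = 0.0546 to 0.231). BARD1, BRIP1, FANCA and CHEK2 lost it without control replicate 2 or 4 h replicate 1, MSH6 and XPC without control replicate 2 or 4 h replicate 2, XRCC4 without control replicate 1 or 4 h replicate 1, and EXO1 without 4 h replicate 1 (adjusted p = 0.054 to 0.106).

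At 24 h the recombination and Fanconi genes were higher than in the controls: 18 of 24 rose, none fell and 6 were not called, with a median log2 change of 0.78. None was lower at an unadjusted p under 0.05 either, by edgeR, DESeq2 or limma-voom. Over all genes 22.3% were called, 12.9% higher and 9.39% lower, with a median of 0.015. Of the 15 mismatch, excision and end-joining genes 6 rose and 1 fell (median 0.19), and of the 7 break-sensing genes 4 rose and none fell (median 0.28), also none by unadjusted p in any of the 3 tools. The 24 h libraries are compared with the same controls as the 4 h libraries.

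EXO1 rose most, from 8.84 and 8.46 CPM in the controls to 24.2 and 24.1 CPM at 24 h. The treated libraries agreed closely and lay well above both controls, a log2 change of 1.48 (SE 0.13, edgeR adjusted p = 2.67e-05). BRCA1 had 30.7 and 37.6 CPM in the controls and 71.6 and 72.0 CPM at 24 h (1.07, SE 0.11, edgeR adjusted p = 5.05e-05). BARD1, without which BRCA1 is unstable, had 6.01 and 6.79 CPM against 14.9 and 15.4 CPM, and rose by 1.24 (SE 0.13, edgeR adjusted p = 6.37e-05). In both partners the treated libraries lay above the controls without overlap. RAD54L went from 13.0 and 13.1 CPM to 29.6 and 30.2 CPM (1.2, SE 0.10, edgeR adjusted p = 1.89e-05), and RAD51AP1, whose promoter is printed above, from 15 and 13.3 CPM to 32.3 and 31.4 CPM (1.18, SE 0.10, edgeR adjusted p = 2.67e-05).

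BLM (0.99, SE 0.10) and BRIP1 (0.95, SE 0.10) rose, and BRCA2 (0.71, SE 0.12), RAD54B (0.69, SE 0.13), RMI1 (0.56, SE 0.12), RAD51C (0.39, SE 0.10) and PALB2 (0.34, SE 0.08) rose less. RMI2 (0.44, SE 0.16, edgeR adjusted p = 0.0711) and XRCC2 (0.36, SE 0.20) were not called. XRCC3 had 21.6 and 21.8 CPM in the controls and 21.2 and 20.7 CPM at 24 h (-0.05, SE 0.12), although its window holds the same GGCGGGAA core as that of RAD51AP1.

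Among the Fanconi genes, FANCD2 and FANCI changed most. FANCD2 reached 54.2 and 54.7 CPM (1.34, SE 0.11, edgeR adjusted p = 1.93e-05) and FANCI 116.8 and 128.7 CPM (1.12, SE 0.07, edgeR adjusted p = 5.14e-06). FANCI thus had the highest CPM of any recombination or Fanconi gene in the 24 h libraries, a level per gene and not per length. FANCA, the scaffold of the core complex, went from 18.2 and 20.8 CPM to 42.2 and 41.0 CPM (1.09, SE 0.10, edgeR adjusted p = 2.77e-05). FANCM (0.87, SE 0.19), FANCG (0.86, SE 0.09) and FANCC (0.40, SE 0.11) rose, and FANCB (0.64, SE 0.26), FANCL (0.33, SE 0.11, edgeR adjusted p = 0.0516) and FANCE (0.19, SE 0.18) were not called.

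**Figure D2:**
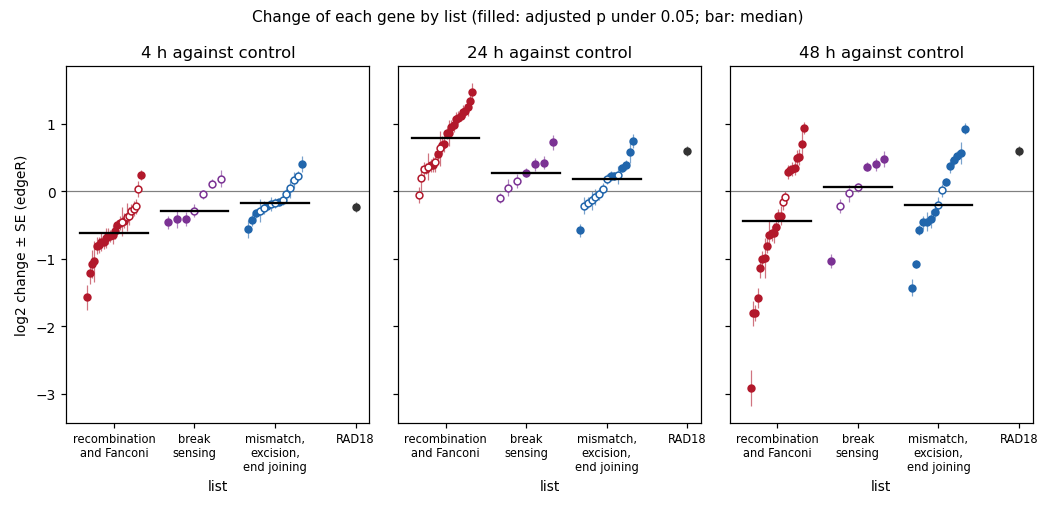
Log2 change of each gene against control (vertical axis, bars are standard errors) at 4, 24 and 48 h, in 3 lists and for RAD18; filled points passed the edgeR threshold, open points did not, and black bars are list medians. The median of the recombination and Fanconi list lay at -0.61, 0.78 and -0.44, and that of the mismatch, excision and end-joining list at -0.17, 0.19 and -0.21.

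The break-sensing and checkpoint genes that rose at 24 h were CHEK1 (0.73, SE 0.11, edgeR adjusted p = 0.00116), MRE11A (0.43, SE 0.10), CHEK2 (0.40, SE 0.10) and RAD50 (0.28, SE 0.07). NBN (-0.10, SE 0.07), ATM (0.06, SE 0.13) and ATR (0.15, SE 0.10) were not called. In the third list PARP2, the smaller of the break-marking polymerases, had 16.0 and 16.3 CPM in the controls and 26.7 and 27.3 CPM at 24 h, without overlap, and rose by 0.74 (SE 0.10, edgeR adjusted p = 0.000519). PARP1 (0.35, SE 0.06, edgeR adjusted p = 0.00171) and XRCC1 (0.39, SE 0.08, edgeR adjusted p = 0.005), the scaffold they recruit, rose less, so 3 of the 4 base excision and single-strand break genes rose. The exception was the glycosylase UNG (-0.17, SE 0.08).

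In end joining PRKDC (0.58, SE 0.17), XRCC5 (0.23, SE 0.06) and XRCC6 (0.23, SE 0.07) rose. LIG4 had 35.7 and 38.9 CPM in the controls and 33.4 and 37.3 CPM at 24 h, overlapping ranges (-0.08, SE 0.12), and its cofactor XRCC4 was not called (0.24, SE 0.13). None of the 4 nucleotide excision genes rose. ERCC2, a helicase of the TFIIH complex, fell from 65.2 and 56.5 CPM to 42.7 and 38.8 CPM, a log2 change of -0.58 (SE 0.10, edgeR adjusted p = 0.00167), while XPA (-0.21, SE 0.12), XPC (-0.04, SE 0.09) and ERCC1 (0.04, SE 0.08) were not called. The mismatch genes MSH6 (0.19, SE 0.07) and PMS2 (-0.13, SE 0.14) were not called. RAD18 went from 39.0 and 40.0 CPM to 59.1 and 61.0 CPM (0.61, SE 0.07, edgeR adjusted p = 0.000231).

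Among the other repair genes 24 of 67 rose and 2 fell at 24 h, with the glycosylase NEIL3 at 1.63 and the checkpoint adaptor CLSPN at 1.43. All 20 proliferation genes rose, with RRM2 at 2.12 and TOP2A at 1.42, and their sum was 3606 and 3607 CPM; its part in the rise of the recombination genes was not tested. Scaled by library totals alone, the share of higher calls over all genes was 41.4% in place of 57.9%, and 17 recombination and Fanconi genes rose. With any 1 library left out, 13 to 15 recombination and Fanconi genes, 3 to 4 mismatch, excision and end-joining genes (lowest without 24 h replicate 1) and 1 to 3 break-sensing genes (1 without control replicate 1, 24 h replicate 1 or 24 h replicate 2) were called. PALB2, RAD51C, CHEK2, XRCC5, XRCC6 and PRKDC lost their call without any 1 of the 4 libraries, RMI1 without any but 24 h replicate 1, and FANCC, RAD50 and MRE11A without any but control replicate 2 (adjusted p = 0.0504 to 0.288). FANCM lost it without control replicate 1 or 24 h replicate 2 (adjusted p = 0.075 and 0.104), and XRCC1 without 24 h replicate 1 (adjusted p = 0.0614).

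The step from 4 to 24 h uses no control library. Here 22 of 24 recombination and Fanconi genes rose and none fell, also none by unadjusted edgeR p, with a median of 1.54, while over all genes 41.5% were called, 21.2% higher and 20.3% lower. PALB2 (0.10, SE 0.08) and XRCC3 (-0.09, SE 0.12) were not called. EXO1 (2.16, SE 0.14, edgeR adjusted p = 6.55e-07), FANCD2 (2.14, SE 0.12, edgeR adjusted p = 2.5e-07) and RMI2 (2.01, SE 0.18) rose at least 4-fold. All 9 FANC genes rose, from FANCL at 0.54 (SE 0.11) to FANCD2. In the mismatch, excision and end-joining list 8 of 15 rose and 2 fell (median 0.35), led by PARP2 (0.93, SE 0.11) and PRKDC (0.87, SE 0.17), with XPA (-0.62, SE 0.12) and ERCC2 (-0.34, SE 0.10) lower. Of the break-sensing genes 5 of 7 rose and NBN fell by 0.21 (SE 0.07), and RAD18 rose by 0.83 (SE 0.08). NEIL3 rose by 2.23 and CLSPN by 1.88 among 36 of 67 other repair genes that rose and 3 that fell, and all 20 proliferation genes rose, AURKB by 2.83 and RRM2 by 2.57. Without 24 h replicate 2 the break-sensing count was 3, and RAD50 and ATR missed the threshold (adjusted p = 0.0556 and 0.056). NBN lost its call without any 1 library, ERCC2 without any but 24 h replicate 1, XRCC2 (0.74 with all libraries) without 4 h replicate 1 (0.42; 1.23 without 4 h replicate 2) or 24 h replicate 2 (0.67), and XPC without 4 h replicate 2 or 24 h replicate 2 (adjusted p = 0.0621 to 0.205).

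At 48 h the recombination and Fanconi genes split. Of 24, 14 were lower than in the controls, 8 were higher and only PALB2 (-0.08, SE 0.08) and BLM (-0.16, SE 0.11) were not called, with a median of -0.44. The background was high at this time: 66.9% of all genes were called, 33.3% higher and 33.5% lower, with a median of -0.022. Of the mismatch, excision and end-joining genes 7 of 15 fell and 6 rose (median -0.21), and of the break-sensing genes 3 of 7 rose and 1 fell (median 0.06).

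XRCC2 showed the widest fall of the 47. It had 8.30 and 9.52 CPM in the controls and 1.16 and 1.2 CPM at 48 h, a log2 change of -2.91 (SE 0.27, edgeR adjusted p = 2.92e-06). XRCC3, which also acts in recombination, went the other way, from 21.6 and 21.8 CPM to 32.9 and 28.4 CPM (0.50, SE 0.12, edgeR adjusted p = 0.00276). RAD51C, its partner, had 17.5 and 17.5 CPM against 14.4 and 13.0 CPM and fell by 0.36 (SE 0.10, edgeR adjusted p = 0.00933). In all 3 the treated libraries lay outside the range of the controls.

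In the dissolution complex, RMI2 fell to 2.93 and 5.02 CPM (-1.81, SE 0.19, edgeR adjusted p = 6.4e-06) and RMI1 to 3.78 and 5.12 CPM (-1.58, SE 0.14, edgeR adjusted p = 2.41e-06). Their helicase BLM, at 9.12 and 9.66 CPM, was not called. BRCA1 lay at 22.7 and 21.8 CPM (-0.62, SE 0.11, edgeR adjusted p = 0.000458), BARD1 at 2.76 and 3.09 CPM (-1.13, SE 0.15, edgeR adjusted p = 4.85e-05) and BRIP1 at 6.57 and 6.43 CPM (-1.0, SE 0.11, edgeR adjusted p = 1.48e-05). All 3 were below both controls, BARD1 and BRIP1 by more than BRCA1. EXO1 (-0.61, SE 0.15), BRCA2 (-0.52, SE 0.13) and RAD54B (-0.36, SE 0.14) fell, whereas RAD54L (0.35, SE 0.11) and RAD51AP1 (0.33, SE 0.11) rose.

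The FANC genes split 5 to 4. FANCL, the ligase subunit, had 27.9 and 29 CPM in the controls and 9.36 and 6.94 CPM at 48 h, with a log2 change of -1.80 (SE 0.12, edgeR adjusted p = 2.54e-07). FANCG of the same core complex had 33 and 29.7 CPM against 62.6 and 57.8 CPM, a log2 change of 0.94 (SE 0.09, edgeR adjusted p = 2.84e-06). Neither gene's treated libraries overlapped its controls. FANCE (0.71, SE 0.18), FANCD2 (0.51, SE 0.12), FANCI (0.32, SE 0.08) and FANCA (0.29, SE 0.10) rose with FANCG, and FANCB (-0.99, SE 0.30), FANCC (-0.80, SE 0.12) and FANCM (-0.65, SE 0.22) fell with FANCL. FANCD2 rose by 0.33 without control replicate 1, where the other control is the higher of the pair.

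**Figure D3:**
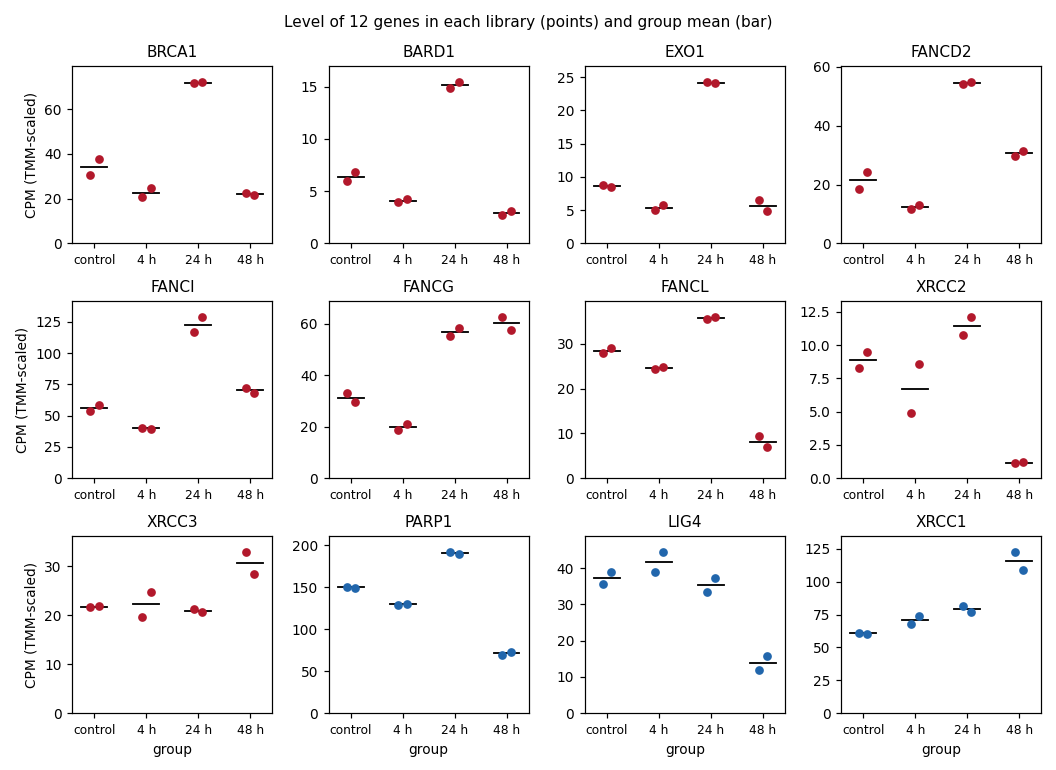
Level in CPM (vertical axes start at 0) of 12 genes in each library (points) of the 4 groups (horizontal axis), with the group mean as a bar; red are recombination and Fanconi genes, blue genes of the mismatch, excision and end-joining list. FANCL, XRCC2, PARP1 and LIG4 dropped below their controls at 48 h, FANCG, XRCC3 and XRCC1 were above them, and FANCD2 and FANCI lay between control and 24 h.

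Among the checkpoint genes ATR, the kinase that answers stalled forks, had 47.2 and 51.1 CPM in the controls and 21.4 and 26.6 CPM at 48 h (-1.03, SE 0.10, edgeR adjusted p = 5.14e-06). Its effector CHEK1 was higher, at 22.4 and 20.2 CPM against 14.6 and 16.0 CPM (0.48, SE 0.12, edgeR adjusted p = 0.00338), as were CHEK2 (0.40, SE 0.10) and RAD50 (0.37, SE 0.07). ATM (-0.03, SE 0.13), NBN (0.06, SE 0.07) and MRE11A (-0.22, SE 0.11) were not called, and ATM was called in none of the 5 comparisons.

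PARP1 had the smallest p of the third list. It had 150.1 and 148.9 CPM in the controls and 68.9 and 73.2 CPM at 48 h, and fell by 1.07 (SE 0.06, edgeR adjusted p = 6.51e-08). PARP2 (0.38, SE 0.10) rose, and XRCC1 rose from 61.3 and 59.9 CPM to 122.5 and 108.7 CPM (0.93, SE 0.08, edgeR adjusted p = 1.29e-06), while UNG fell by 0.31 (SE 0.08). LIG4, the ligase of end joining, had 12 and 15.8 CPM at 48 h against 35.7 and 38.9 CPM and fell by 1.42 (SE 0.13, edgeR adjusted p = 2.25e-06), and XRCC4 fell by 0.40 (SE 0.13). The Ku genes XRCC6 (0.47, SE 0.07) and XRCC5 (0.14, SE 0.06) and the kinase gene PRKDC (0.57, SE 0.17) rose, so the end-joining genes among the members split. End-joining genes outside the members also went both ways. NHEJ1 (16.9 and 15.5 CPM in the controls, 26.0 and 25.8 CPM at 48 h) was higher. POLL (23.5 and 21.9 against 48.9 and 46.3 CPM) and POLM (17.8 and 17.3 against 22.6 and 18.4 CPM) were higher too. DCLRE1C (9.72 and 10.4 against 6.36 and 7.49 CPM) and APLF (5.58 and 5.84 against 4.49 and 3.61 CPM) were lower. The libraries of PRKDC lay apart at 48 h, at 354.6 and 506.5 CPM, and its change was 0.30 (adjusted p = 0.0608) without 48 h replicate 2. Both mismatch genes fell, MSH6 by 0.57 (SE 0.07) and PMS2 by 0.45 (SE 0.14). ERCC1, part of a structure-specific nuclease, rose by 0.52 (SE 0.08), XPC fell by 0.46 (SE 0.09), and XPA (-0.21, SE 0.12) and ERCC2 (0.02, SE 0.10) were not called. RAD18 stayed at its 24 h level, 56.8 and 62.7 CPM (0.60, SE 0.07 against control).

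In the recombination and Fanconi list the direction at 48 h moved with the base composition of the transcripts. Against control the gap was small in the mismatch, excision and end-joining list. There the median GC content of the longest transcript was 48.0% for genes that rose and 46.2% for those that fell. From 24 to 48 h the gap was wide in that list too, at 57.2% for 4 genes that rose and 43.0% for 6 that fell. In the recombination and Fanconi list this step gave 60.8% for 2 genes and 41.2% for 21, and over all genes 50.2% and 46.4%. The values that follow are against control. The 8 recombination and Fanconi genes that rose had a median GC content of 54.2% in their longest transcript, and the 14 that fell had 38.6%; over all genes the medians were 49.5% for those that rose and 46.8% for those that fell. RAD51AP1 rose at 36.1% GC and RMI2 fell at 48.7%, so single genes departed from this. With transcript length and GC content corrected in each library, 8 of the 24 rose and 12 fell, and XRCC2 (-2.81), FANCL (-1.96), RMI2 (-1.92), LIG4 (-1.29), PARP1 (-1.0), FANCG (0.85) and XRCC1 (0.86) stayed on their side. RAD54B (-0.32, adjusted p = 0.0519) and FANCM (-0.47, adjusted p = 0.0676) missed the threshold under this correction.

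**Figure D4:**
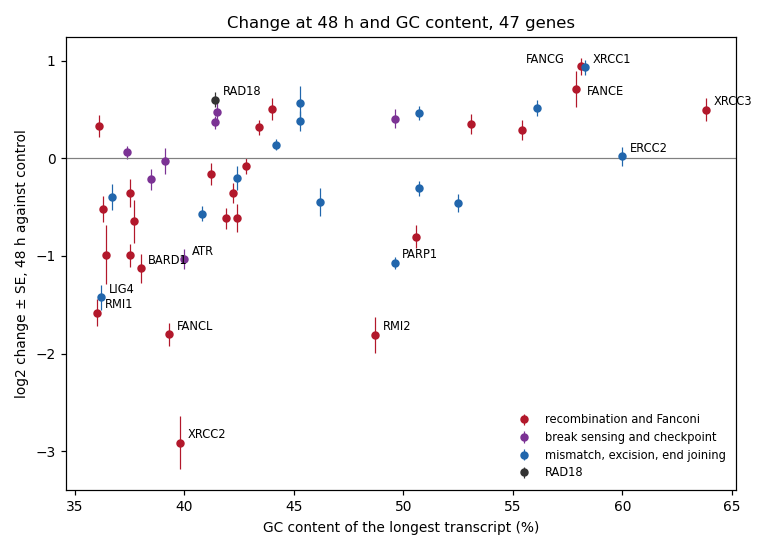
Log2 change at 48 h against control (vertical axis, bars are standard errors) and GC content of the longest transcript (horizontal axis, percent) for the 47 genes, coloured by list. The genes above 55% GC lie at or above 0, and those below 40% GC run from RAD51AP1 at 0.33 to XRCC2 at -2.91.

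The split depended on the scaling and on the libraries fitted. With only the control and 48 h libraries, 5 recombination and Fanconi genes rose and 14 fell. With library totals alone the median of all genes at 48 h was -0.30 in place of -0.02, the share of higher calls over all genes was 29% in place of 49.8%, and 1 recombination and Fanconi gene rose, FANCG, with 16 lower. The rises of RAD51AP1, RAD54L, XRCC3, FANCA, FANCD2, FANCE, FANCI, CHEK1, CHEK2, RAD50, PARP2 and PRKDC were then not called, and XRCC5 was lower (-0.14, adjusted p = 0.0312); the falls of XRCC2, FANCL, RMI1, RMI2, LIG4, PARP1, ATR, BARD1 and BRIP1 do not depend on this choice. Without any 1 library, RAD54L (0.23 without 48 h replicate 1), RAD51AP1, FANCA, FANCB, RAD54B, FANCM, PMS2 (-0.28 without 48 h replicate 1), PARP2 (0.25 without 48 h replicate 1), XRCC4, XRCC5 and PRKDC each lost their call for at least 1 library (adjusted p = 0.0528 to 0.189). Among other repair genes 31 of 67 fell and 21 rose, with the nuclease scaffold SLX4 at -2.43 and the histone gene H2AFX at -2.41. The proliferation list split too, with 11 of 20 higher and 8 lower: the G1/S cyclin CCNE2 was at -3.75 and the replication helicase MCM6 at -1.71, while the mitotic kinases PLK1 and AURKB were at 1.65 and 1.06. Its sum was 2565 and 2473 CPM, and its part in the split of the repair genes was not tested.

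From 24 to 48 h, again without control libraries, 21 of 24 recombination and Fanconi genes fell and XRCC3 (0.55, SE 0.12) and FANCE (0.52, SE 0.18) rose, with a median of -1.17; over all genes 66.8% were called, 31.5% higher and 35.3% lower, with a median of -0.07. FANCG was not called (0.08, SE 0.09). XRCC2 (-3.28, SE 0.27), BARD1 (-2.37, SE 0.14, edgeR adjusted p = 1.02e-07), RMI2 (-2.25, SE 0.18), RMI1 (-2.14, SE 0.14), FANCL (-2.13, SE 0.12, edgeR adjusted p = 6.96e-08) and EXO1 (-2.09, SE 0.14) fell by at least 4-fold. The mismatch, excision and end-joining genes had 6 of 15 lower and 4 higher (median -0.14), with PARP1 (-1.42, SE 0.06, edgeR adjusted p = 9.11e-09) and LIG4 (-1.34, SE 0.13) lowest and ERCC2 (0.60, SE 0.10) highest. Of the break-sensing genes ATR fell by 1.19 (SE 0.10) and MRE11A by 0.65 (SE 0.10) and none rose; by unadjusted edgeR p 1 was higher, and DESeq2 called 1 higher. Among other repair genes 38 of 67 fell and 16 rose, led by H2AFX (-3.40) and SLX4 (-2.80), and 17 of 20 proliferation genes fell, with CCNE2 at -4.21 and MCM6 at -1.96. With library totals alone the share of higher calls over all genes was 32.1% in place of 47.1%, and 21 recombination and Fanconi genes fell and 1 rose. The break-sensing count was 4 without 48 h replicate 1. FANCE lost its call without any but 48 h replicate 2 (0.31 without 48 h replicate 1), PARP2 without 24 h replicate 2 or 48 h replicate 2 (-0.23), and XRCC6 without 24 h replicate 2 (adjusted p = 0.0535 to 0.178).

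Summed over the list, the 24 recombination and Fanconi genes had 395.7 and 417.3 CPM in the controls, 283.2 and 305.2 CPM at 4 h, 718.0 and 736.4 CPM at 24 h, and 394.2 and 384.4 CPM at 48 h. The 48 h sum lay just below the control range, although 22 of the 24 genes differed from control, with higher and lower members offsetting each other. The 15 mismatch, excision and end-joining genes had 1645 and 1683 CPM in the controls, 1511 and 1453 CPM at 4 h, 1971 and 1999 CPM at 24 h, and 1845 and 1914 CPM at 48 h, a smaller range in relation to their level. This sum follows mainly the end-joining genes, which made up 1035 of a mean of 1664 CPM in the controls. It hides the falls of single genes at 48 h, such as PARP1 and LIG4. The difference between the lists was not tested.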

How the data were processed

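The deposited values were whole-number read counts per gene, 1 file for each of 8 libraries. Per the submitters' processing notes, Bowtie and the human build hg19 (GRCh37) were used to make the counts that the authors deposited; a counting tool, a set of gene models or a strand setting is not named in them (not given in the sources used here). In the files 28 names had been turned into dates, with 0.1905 to 0.224% of the counts, and they kept those names.

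All 8 libraries were fitted together with edgeR 4.0.16 (R 4.3.3), with 1 coefficient for each of 4 groups, the default filter on low counts (14448 of 23368 genes) and TMM factors (0.87 to 1.08). The biological coefficient of variation was 7.15%. The 5 contrasts were tested by quasi-likelihood, and p-values were adjusted over all 14448 genes. Log2 changes in the text are those of the fit, with their standard errors. Alternatives were DESeq2 1.42.0, limma-voom (limma 3.58.1), other scalings and filters, a replicate block, and leaving out libraries. A further fit corrected each library for length and GC of the longest transcript (GENCODE release 29, 88.4% of tested genes matched by symbol); it was chosen after seeing the data.

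Simulated counts gave every gene the same spread (dispersion 0.00512). Only a small set of genes was changed, in 1 group, and these were drawn from genes above a floor of abundance. The shares recovered are therefore no measure for members at low levels, such as FANCB and FANCM, or with a wider spread. On these simulated data all genes changed 2-fold (100%) were called in each comparison. Of those changed 1.5-fold, 96% were called for 4 h against control (7 false calls among 14304 genes), 92% for 24 h (1 among 14309), 84% for 48 h (9 among 14296), 90% for 24 h against 4 h (3 among 14302) and 97% for 48 h against 24 h (9 among 14313). The members and gene lists were chosen with earlier results of these data known. Any member could be named. The plan was full statistics per list for up to 4 called genes with the smallest p and for those not called. The text departs from this plan. At 4 h FANCG was among those with the smallest p and is given by its change alone. Genes beyond the first 4, such as PALB2 and FANCE at 4 h, are given in full. Outside the members, up to 2 called genes with the largest change were named from each of the other lists. Further genes were added after their values were seen: PLK1 and AURKB at 48 h, and TOP3A at 4 h. The end-joining genes NHEJ1, POLL, POLM, DCLRE1C and APLF at 48 h were added in the same way.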

Additional observations from a re-analysis of the deposited data

Results flagged for a closer look

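At 4 h 19 of the 47 genes were lower, and at 24 h higher, than the same 2 control libraries, as were 514 of all 14448 genes (3.56%). The differences between 24 h and 4 h are given as a description: they passed the edgeR threshold in all 514, an outcome that the choice of genes all but fixes. For recombination genes the log2 difference was 1.66 for BRCA1, 1.46 for BRCA2, 1.88 for BARD1, 1.92 for RAD51AP1, 1.86 for RAD54L, 1.90 for RAD54B, 1.78 for BLM, 1.38 for BRIP1 and 2.16 for EXO1. For Fanconi genes it was 1.57 for FANCA, 2.14 for FANCD2, 1.52 for FANCG and 1.62 for FANCI. Smaller differences were found for MRE11A (0.84), CHEK1 (1.14), CHEK2 (0.86), PARP1 (0.56), XRCC5 (0.39) and RAD18 (0.83).

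Of the members, 11 were called in both directions later: they rose at 24 h and fell at 48 h against the same controls, as did 493 of all 14448 genes (3.41%). The difference between 48 h and 24 h, past the threshold in all 493, is likewise a description. The log2 difference was -1.69 for BRCA1, -1.23 for BRCA2, -2.37 for BARD1, -0.75 for RAD51C, -1.04 for RAD54B, -2.14 for RMI1, -1.95 for BRIP1 and -2.09 for EXO1. It was -1.20 for FANCC, -1.52 for FANCM and -1.42 for PARP1. BRCA1, BRCA2, BARD1, RAD54B, BRIP1, EXO1 and PARP1 thus fell, rose and fell at the 3 times.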

How the results depend on the processing

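The 2 libraries of a group limit every test, and counts of calls moved more than the directions did. With only the groups compared, 5051 genes were called at 24 h, and without the 48 h libraries 4907, against 3222 with all libraries. At 48 h against control the count went the other way, with 8758 genes called with only these groups against 9661 with all libraries. With 1 library left out, the genes called were 2227 to 2429 at 4 h, 1349 to 1666 at 24 h and 3823 to 4142 between 24 h and 4 h. In the mismatch, excision and end-joining list they were 1 to 3 at 4 h and 3 to 4 at 24 h. In the break-sensing list they were 0 to 2 at 4 h, 1 to 3 at 24 h, 3 to 5 between 24 h and 4 h and 2 to 4 between 48 h and 24 h. The median of the recombination and Fanconi list then lay at -0.70 to -0.49 at 4 h, 0.68 to 0.85 at 24 h and -1.24 to -1.11 between 48 h and 24 h, and that of the mismatch, excision and end-joining list at 0.07 to 0.20 at 24 h.

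With library totals alone the recombination and Fanconi median was 0.72 at 24 h, -0.72 at 48 h and -1.39 between 48 h and 24 h, and that of the mismatch, excision and end-joining list was -0.48 at 48 h and -0.36 between 48 h and 24 h. NBN (-0.22), ERCC2 (-0.26) and XRCC5 (-0.14) changed direction at 48 h under that scaling. With length and GC content corrected, the recombination and Fanconi median was 0.73 at 24 h, -0.39 at 48 h and -1.0 between 48 h and 24 h, and that of the mismatch, excision and end-joining list was -0.39 at 48 h. That correction called 5 break-sensing genes at 4 h and 4 between 48 h and 24 h, and RAD18 changed direction between 48 h and 24 h (0.16). The cause was not tested.

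Deviations of same-numbered libraries correlated weakly, at -0.00488 to 0.135, highest between control and 48 h. Whether replicate numbers pair the samples was not tested. With the replicate block 4624, 3749 and 9884 genes were called at 4, 24 and 48 h, and 6370 between 24 h and 4 h. Without it there were fewer, 4127, 3222 and 9661 at 4, 24 and 48 h and 5997 between 24 h and 4 h. The block called 19, 19 and 22 recombination and Fanconi genes at 4, 24 and 48 h. Of 3186 values of single members over all settings, 2925 kept their direction and side of the threshold, 89 newly passed it, 168 no longer passed it and 4 reversed.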

Other observations

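Count ratios of genes whose products work together are given as values; they depend on gene length and are not ratios of molecules. BRCA1 to BARD1 was 5.1 and 5.54 in the controls and 8.22 and 7.06 at 48 h, with values of 4.68 to 5.76 in the 4 h and 24 h libraries. RMI1 to BLM was 1.29 and 1.24 in the controls and 0.414 and 0.53 at 48 h. FANCL to FANCA was 1.53 and 1.4 in the controls and 0.418 and 0.276 at 48 h. PARP2 to PARP1 was 0.107 and 0.109 in the controls and 0.334 and 0.261 at 48 h. For XRCC2 to XRCC3 the values were 0.384 and 0.436 in the controls and 0.0351 and 0.0424 at 48 h. For the Ku pair XRCC5 to XRCC6 they were 1.39 and 1.42 in the controls and 1.09 and 1.16 at 48 h. FANCD2 to FANCI was 0.346 and 0.416 in the controls and 0.413 and 0.46 at 48 h. Of 13 pairs computed, 12 had both 48 h libraries outside the range of the controls, and FANCD2 to FANCI did not. The share over other pairs of genes was not computed. At 48 h against control edgeR called 66.9% of all genes, which is a share of single genes and not of ratios. Whether the count is particular to partner genes was therefore not tested.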
